A study of Homo sapiens with 18 samples.

Results

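The comparison described here set a clone of leukaemia cells with its NRAS G12V transgene switched on at the highest dose of doxycycline against the same clone left untreated. Its members were all genes measured well enough to test. These were the 17555 of 60658 gene IDs in the table that reached at least 1 FPKM (fragments per kilobase of transcript, scaled to library size, a level corrected for transcript length and library depth) in at least 3 of the 18 libraries of the series. The values came from 6 libraries, 3 of clone B11 at 10 ug/ml doxycycline (treated B11) and 3 of B11 at 0 ug/ml (untreated B11), after 5 days in RPMI medium with 10% serum. B11 is 1 subclone of THP1, a monocytic acute myeloid leukaemia line with a heterozygous NRAS G12D mutation. Per the labels, B11 carries lentiviral NRAS G12V that resists CRISPR and is driven with GFP by doxycycline, as well as Cas9 with a pair of guide RNAs aimed around the start codon of NRAS, and both B11 groups share all of these. THP1 at 10 and at 0 ug/ml, 3 libraries each, showed what the drug did in cells without the transgene. The plates of each line came from 1 grown-out culture, so the p-values measure the spread between plates only.

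NRAS is a small GTPase that, when bound to GTP, recruits RAF kinases and starts the MEK and ERK kinase cascade. Mutations at codon 12 slow its return to the GDP-bound state. ERK acts on transcription through immediate early factors such as EGR1 and through ETS factors, and its output is tied to entry into the cell cycle. In monocytic leukaemia cells, growth and differentiation toward macrophages tend to oppose each other.

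NRAS was measured at 28.0, 27.7 and 28.2 FPKM in libraries A, B and C of treated B11, against 19.8, 22 and 21.1 FPKM in untreated B11. All treated libraries lay above all untreated ones, and the difference was 0.40 on the log2(FPKM + 1) scale (standard error, SE, 0.07, adjusted p = 0.000276). Only 1 value is given for the gene, which does not tell reads of the transgene from those of the edited gene. How many transgene reads were counted in it is not known. NRAS averaged 24.2 FPKM in treated THP1 and 23.3 FPKM in untreated THP1. Markers of the line were present. The myeloid transcription factor SPI1 was at 302, 282 and 282 FPKM in treated B11, against 305, 279 and 288 FPKM in untreated B11, and CD33, CEBPA, PTPRC and HOXA9 were at 83.5 FPKM or more in every B11 library. CD14 was at 1.30 FPKM or less in all 6 and MPO at 11.7 FPKM or less. Among the markers, CD33, CEBPA, PTPRC, CD4, CSF1R and LYZ were lower in treated B11 at an adjusted p under 0.05 by limma. Their changes on the log2(FPKM + 1) scale were -0.50, -0.59, -0.52, -0.72, -3.54 and -3.23. In the other direction, 2 markers of monocytes and macrophages were higher. ITGAM, the integrin chain CD11b, was at 9.65, 14.4 and 9.93 FPKM in treated B11, against 3.26, 2.17 and 4.68 FPKM in untreated B11 (change 1.51, SE 0.20, adjusted p = 2.21e-05), and FCGR1A, the high-affinity IgG receptor, was at 37.4, 59.2 and 49.7 FPKM in treated B11, against 22.2, 21.96 and 19.97 FPKM in untreated B11 (change 1.13, SE 0.15, adjusted p = 2.36e-05). FPKM summed to 1.11 to 1.14 M per library in treated B11 and to 1.16 to 1.20 M in untreated B11, and libraries of a group correlated at 0.951 to 0.955 in treated B11 and 0.938 to 0.943 in untreated B11 (Pearson, across genes). Read depth is not in the table. In bulk RNA, fewer cells of a type and less RNA per cell cannot be told apart.

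A large part of the measured transcriptome differed. Of the 17555 genes, 3784 were higher (21.6%) and 3736 lower (21.3%) in treated B11 at an adjusted p under 0.05 by limma. At least 2-fold changes made up 1378 higher (7.85%) and 1402 lower (7.99%) of them. Changes of at least 4-fold numbered 276 higher and 199 lower, of at least 8-fold 53 and 48, and of at least 16-fold 12 and 19. The median change was 0.82 among genes called higher, -0.84 among genes called lower and -0.02 over all genes tested. In 7202 of the 7520 called genes, 95.8%, the 3 libraries of one group lay entirely above those of the other. The calls rest on the same libraries, so this share is no separate support for them. Its counterpart over all genes tested was not computed. Genes named by size or abundance were chosen to meet this condition. All changes below are differences of log2(FPKM + 1), treated minus untreated B11, which understates the fold of genes near 1 FPKM.

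**Figure D1:**
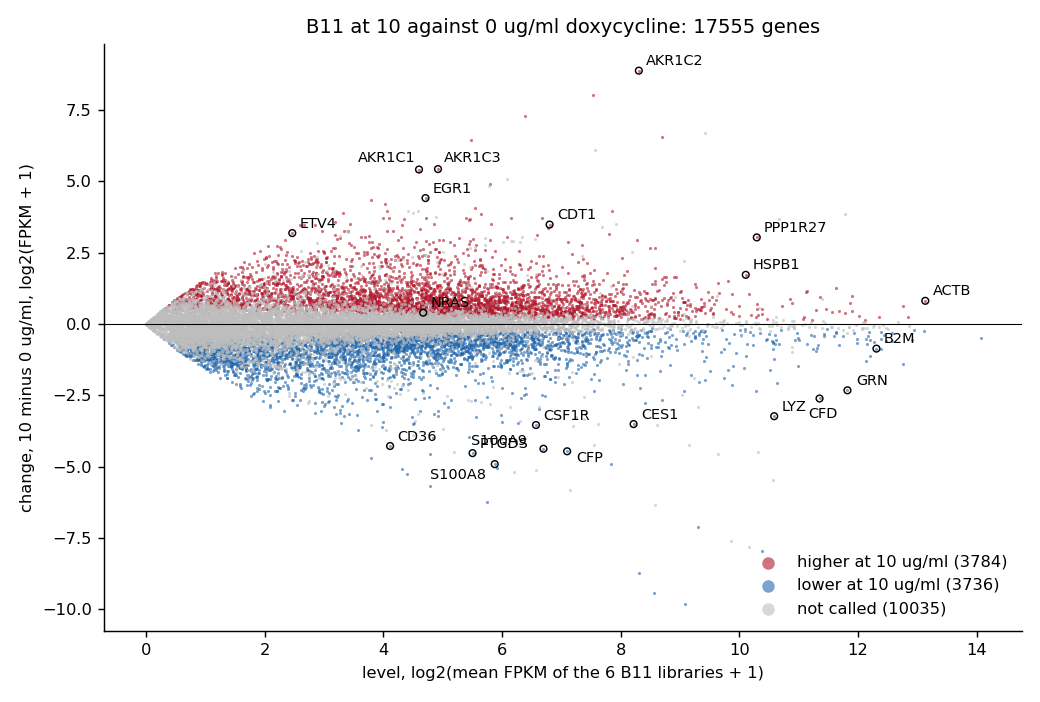
Each point is 1 of the 17555 genes, with its mean level over the 6 B11 libraries as log2(FPKM + 1) on the horizontal axis and its change, 10 minus 0 ug/ml, on the vertical axis. The 3784 genes called higher and the 3736 called lower occur at every level, and ringed genes such as EGR1 (4.42), ACTB (0.82), LYZ (-3.23) and S100A8 (-4.91) are described in the text.

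Among protein-coding genes with large rises were an immediate early factor, a cyclin and a replication licensing factor. EGR1, a zinc finger transcription factor induced within minutes of growth factor signalling, was at 52.7, 46.2 and 48.1 FPKM in treated B11, against 1.30, 1.31 and 1.40 FPKM in untreated B11. Its groups were far apart and its replicates close, and its change was 4.42 (SE 0.12, adjusted p = 9.43e-13). CCND1, the cyclin D1 that partners CDK4 and CDK6, stood at 21.2, 15.3 and 16.3 FPKM in treated B11, against 0.0179, 0.149 and 0.670 FPKM in untreated B11. In the clone, CCND1 was thus close to silent without induction, while in untreated THP1 it was at 6.13, 8.90 and 8.14 FPKM. CDT1, which loads the MCM helicase at replication origins, had 219, 198 and 194 FPKM in treated B11, against 22.1, 16.8 and 13.6 FPKM in untreated B11 (change 3.49, SE 0.12, adjusted p = 2.04e-11). MYBL2, a transcription factor of the late cell cycle, changed by 3.68 (SE 0.15).

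The genes with large rises given next were picked from the rest and share no single theme. The same ranking by size also held RRM2 (change 3.73), PBK (3.70), AURKB (3.49), CDC45 (3.46) and UBE2S (3.35). It held PHGDH, PSAT1 and SLC7A5 as well, which are described with their pathways below. INAVA, an adaptor in innate immune signalling, was at 53.4, 41.7 and 48.5 FPKM in treated B11, against 2.60, 3.39 and 2.13 FPKM in untreated B11. FCER2, the low-affinity IgE receptor CD23, was at 44.8, 41.1 and 44.8 FPKM in treated B11, against 3.23, 4.0 and 3.10 FPKM in untreated B11, and in THP1 it averaged 2.52 FPKM at 10 ug/ml and 1.76 FPKM at 0 ug/ml. Both genes were thus low in every untreated library of the clone. GAL, the precursor of the neuropeptide galanin, changed by 3.53 (SE 0.21), S100P, a calcium-binding protein, by 3.66 (SE 0.19), and ACOT7, an acyl-CoA thioesterase, by 3.51 (SE 0.09). TIMP3, an inhibitor of metalloproteinases that lies within SYN3 on the other strand, was at 29.5, 33.4 and 22.7 FPKM in treated B11, against 0.641, 1.69 and 1.5 FPKM in untreated B11. GNAI1, an inhibitory G protein subunit, had 25.7, 31.1 and 34.2 FPKM in treated B11, against 0.437, 2.48 and 0.536 FPKM in untreated B11. RAB3IL1, an exchange factor of RAB GTPases, had 26.1, 20.0 and 30.2 FPKM in treated B11, against 0.294, 0.315 and 0.210 FPKM in untreated B11. CEP97, a centrosomal protein, was the least even of them, at 3.06, 98.6 and 169 FPKM in treated B11, against 1.24, 1.84 and 1.20 FPKM in untreated B11. Its call was lost when only the libraries of these 2 groups entered the fit (adjusted p = 0.0733). Untreated THP1 averaged 26.1 FPKM of INAVA, 38.8 of GAL, 28.7 of S100P, 45.1 of ACOT7, 41.6 of TIMP3 and 10.6 of GNAI1. There RAB3IL1 averaged 31.7 FPKM and CEP97 1.94 FPKM. RRM2, PBK, MYBL2 and CDC45 averaged 133, 46.9, 121 and 61.0 FPKM in untreated THP1, above their 76.9, 36.7, 80.6 and 35.6 FPKM in treated B11. AURKB, CDT1 and UBE2S averaged 49.8, 123 and 157 FPKM in untreated THP1, below their 103, 203 and 197 FPKM in treated B11.

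Among the genes with large falls were several that phagocytes are known to express. S100A8 and S100A9 form calprotectin, a calcium-binding pair that neutrophils and monocytes release. S100A8 was at 1.94, 3.30 and 3.08 FPKM in treated B11, against 118, 86.6 and 134 FPKM in untreated B11 (change -4.91, SE 0.19, adjusted p = 4.77e-11). CD36, a scavenger receptor for lipoproteins, had 0.735, 0.879 and 0.499 FPKM in treated B11, against 32.3, 33.9 and 29.5 FPKM in untreated B11. MPEG1, the pore-forming protein perforin-2 of phagocytes, was at 0.0656, 0.121 and 0.0522 FPKM in treated B11, against 7.32, 8.35 and 8.01 FPKM in untreated B11. CD36 and MPEG1 were below 1 FPKM in every treated library, and S100A8 was at 3.30 FPKM or less. CD36 overlaps GNAT3, and MPEG1 overlaps DTX4, on the other strand. Reads of such pairs cannot be told apart, since the sources used here do not say whether the libraries keep strand.

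CSF1R, through which M-CSF acts on macrophages, was at 16.4, 13.6 and 12.4 FPKM in treated B11, against 186, 159 and 178 FPKM in untreated B11. LYZ, which encodes lysozyme, was at 271, 282 and 327 FPKM in treated B11, against 3075, 2258 and 3009 FPKM in untreated B11. Both stayed measurable after induction. CES1, the carboxylesterase of monocytes, had very even replicates, with 46.4, 47.9 and 47.1 FPKM in treated B11, against 547, 540.4 and 551 FPKM in untreated B11 (change -3.51, SE 0.08, adjusted p = 3.38e-13). NFE2, a transcription factor of the megakaryocytic and erythroid lineages that monocytes also express, changed by -3.96 (SE 0.09). CXCR4, the chemokine receptor that retains cells in marrow, changed by -3.42 (SE 0.11). AOC1, a diamine oxidase, changed by -3.46 (SE 0.10), PTGDS, a prostaglandin D2 synthase, by -4.52 (SE 0.20), and CACNA2D3, an accessory subunit of calcium channels, by -3.48 (SE 0.15). NAIP, a sensor of bacterial flagellin, was at 2.79, 3.84 and 3.13 FPKM in treated B11, against 41.4, 37.3 and 39.5 FPKM in untreated B11. FGD2, an exchange factor of CDC42, was at 8.48, 8.44 and 6.80 FPKM in treated B11, against 82.1, 78.0 and 92 FPKM in untreated B11. MS4A4E and GAPT, a membrane protein and an adaptor of blood cells, changed by -3.21 (SE 0.27) and -3.04 (SE 0.23).

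**Figure D2:**
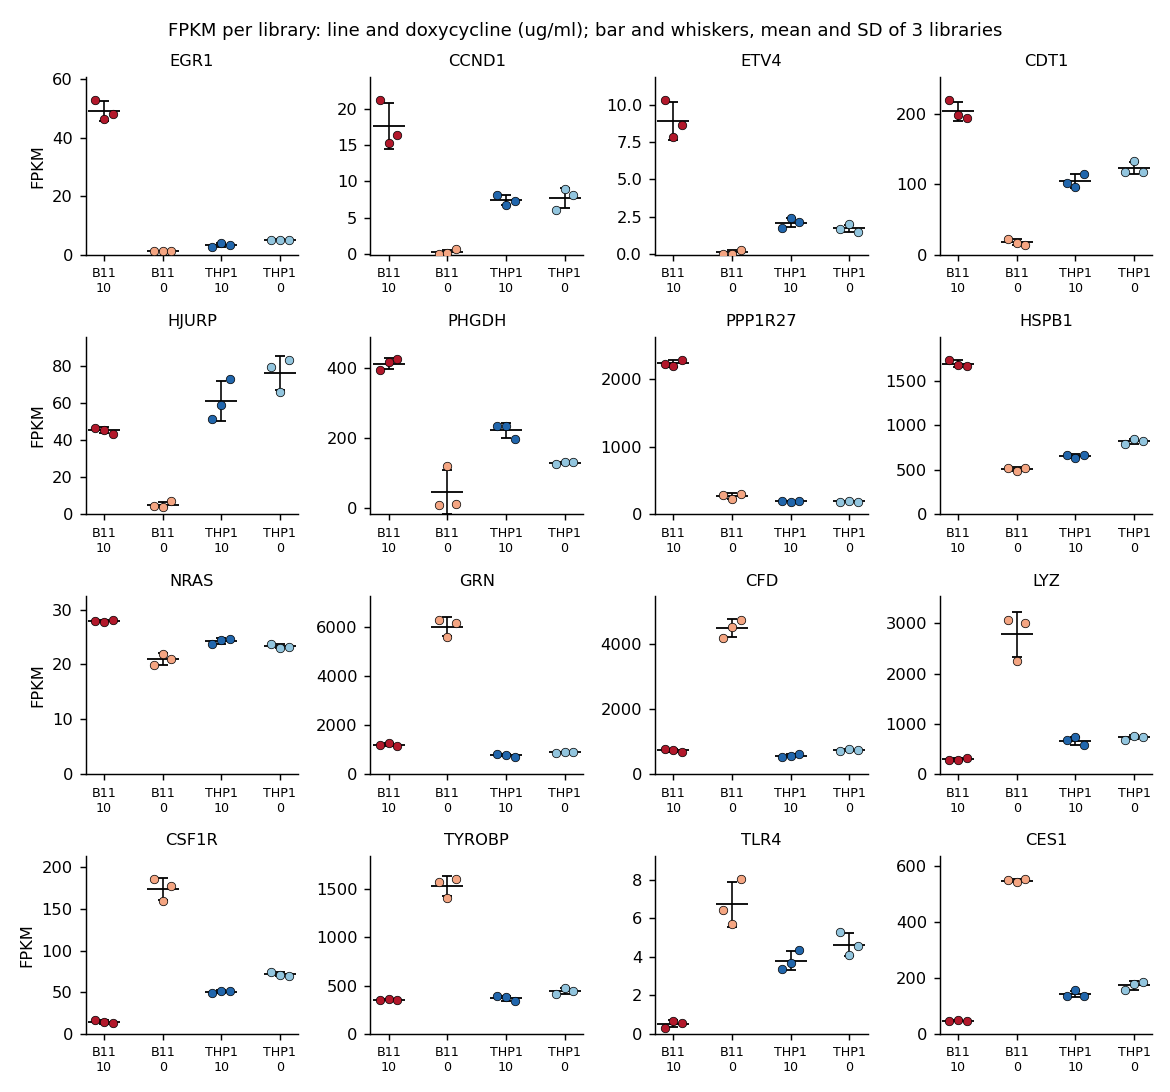
Points are single libraries in FPKM on a linear axis, in columns for B11 at 10 and 0 ug/ml and THP1 at 10 and 0 ug/ml, with a bar and whiskers for the mean and SD of 3 libraries. The B11 groups do not overlap in any of the 16 genes, which was a condition for naming genes by size or abundance. For PHGDH 1 untreated library lies at 121 FPKM while the others lie at 11 and 11.8.

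Several of the most abundant messages differed between the groups. ACTB, the cytoplasmic beta-actin, was at 11364, 11650.0 and 11348 FPKM in treated B11, against 7039.9, 5867 and 6671 FPKM in untreated B11. It is often used as a constant gene, yet its change was 0.82 (SE 0.06, adjusted p = 2.86e-08). GAPDH, another such gene, averaged 2392 ± 174 FPKM in treated B11 and 1304 ± 80.7 FPKM in untreated B11 (SD, n = 3 each). CA2, a carbonic anhydrase, averaged 4506 ± 398 FPKM in treated B11 and 1858 ± 138 FPKM in untreated B11. LGALS1, the lectin galectin-1, averaged 5063 ± 140.3 FPKM in treated B11 and 2549.8 ± 214 FPKM in untreated B11. HSPB1, a small heat shock protein, averaged 1694 ± 36.2 FPKM in treated B11 and 511 ± 23.1 FPKM in untreated B11. NPM1, the nucleolar chaperone nucleophosmin, averaged 3464 ± 276 FPKM in treated B11 and 1795 ± 208 FPKM in untreated B11. Of the 12 genes with the largest rise in FPKM, PPP1R27, a regulatory subunit of protein phosphatase, had the largest change on the log2 scale, 3.04 (SE 0.08), with 2228, 2193 and 2286 FPKM in treated B11, against 290.4, 228 and 302 FPKM in untreated B11.

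In the other direction, AZU1, the granule protein azurocidin, was at 3941, 3806 and 3803 FPKM in treated B11, against 10413, 9478 and 10340.0 FPKM in untreated B11. GRN, the secreted and lysosomal glycoprotein progranulin, was at 1202, 1273 and 1142 FPKM in treated B11, against 6318, 5609 and 6178 FPKM in untreated B11. CFD, the complement protease factor D, was at 772, 748 and 685 FPKM in treated B11, against 4187, 4529.7 and 4752 FPKM in untreated B11. In each of these 3 genes the groups did not overlap, which was a condition for naming genes by abundance. ELANE, the neutrophil elastase, averaged 2949 ± 12.1 FPKM in treated B11 and 6489.6 ± 455 FPKM in untreated B11. SRGN, the proteoglycan of secretory granules, averaged 3443 ± 253 FPKM in treated B11 and 5644 ± 603 FPKM in untreated B11. B2M, the light chain of HLA class I, averaged 3609 ± 252 FPKM in treated B11 and 6551 ± 411 FPKM in untreated B11. The ribosomal protein genes RPS27 and RPL30 changed by -0.55 (SE 0.07) and -0.58 (SE 0.07), and TPT1 changed by -0.59 (SE 0.05). EEF2, the elongation factor that moves the ribosome, went the other way by 0.45 (SE 0.08).

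The direction differed between kinds of gene. Of 12733 protein-coding genes tested, 3464 (27.2%) were higher and 2717 (21.3%) lower. Of 760 long intergenic non-coding RNAs (lincRNAs), 50 (6.58%) were higher and 235 (30.9%) lower, and of 1286 antisense genes 72 (5.6%) were higher and 332 (25.8%) lower. Processed pseudogenes, copies of mature messages, showed no such tilt, with 132 higher and 112 lower of 1278. Their levels are uncertain because of near-identical parents. LincRNAs are lower in level than protein-coding genes, at a median of 1.65 FPKM against 15.5 FPKM. Within genes of 1 to 5 FPKM, 20 of 351 lincRNAs were higher and 127 lower, while 489 of 2427 protein-coding genes were higher and 468 lower. Above 5 FPKM, 19 of 163 lincRNAs were higher and 79 lower. Of the 361 lincRNAs that overlap no annotated gene on either strand, 22 were higher and 133 lower. The lincRNA counts were 55 higher and 215 lower in TPM, and 50 and 236 with median of ratios scaling. Intronic or unspliced RNA was not measured here, and its part in these counts was not tested.

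NEAT1, the nuclear RNA that scaffolds paraspeckles, was at 106, 112 and 78.0 FPKM in treated B11, against 442, 417 and 416 FPKM in untreated B11 (change -2.11, SE 0.18, adjusted p = 2.2e-07). TUG1, another nuclear RNA, changed by -1.12 (SE 0.12). Among antisense genes, ASMTL-AS1 was at 24.2, 26.6 and 15.1 FPKM in treated B11, against 144, 102 and 114 FPKM in untreated B11. ALG13-AS1 was listed at 0 in all treated libraries, against 3.13, 7.26 and 7.14 FPKM in untreated B11. Both overlap the gene they are named after, so part of their reads may belong to it. Few non-coding genes rose. TMPO-AS1 was at 16.9, 24.6 and 17 FPKM in treated B11, against 3.12, 2.71 and 5.59 FPKM in untreated B11, and it overlaps TMPO, so the same caution holds. CYTOR, a cytoplasmic lincRNA, changed by 1.36 (SE 0.14). Of 34 well-known long non-coding RNAs tested, 4 were higher and 12 lower (median -0.14).

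**Figure D3:**
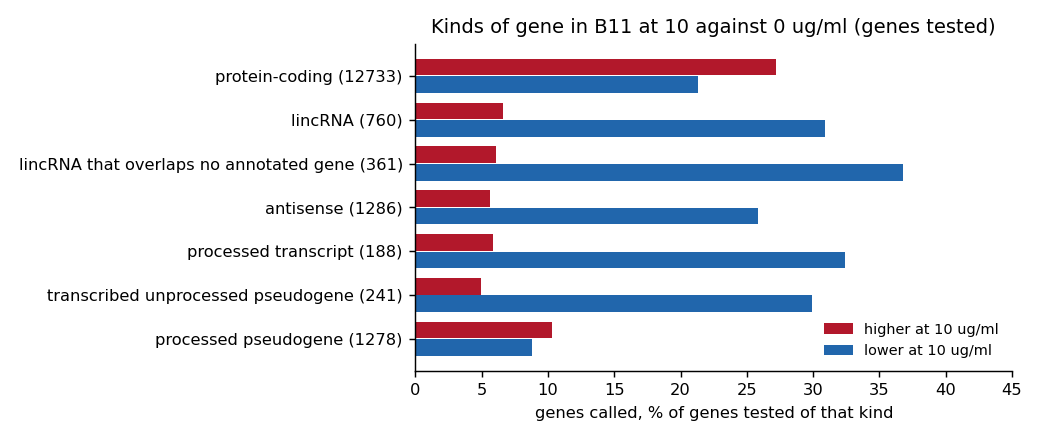
Bars give the share of tested genes of each GENCODE kind called higher (upper bar) and lower (lower bar) in treated B11, with the number tested in brackets. Protein-coding genes were higher in 27.2% and lower in 21.3%, and lincRNAs in 6.58% and 30.9%.

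In lists of chromatin assembly and genome maintenance, more genes were higher than lower. Of 32 histone chaperones and chromatin assembly genes, 23 were higher and 0 lower (median 0.96), against 21.6% and 21.3% of all genes and a median of -0.02. HJURP, the chaperone that places CENP-A at centromeres, was at 46.8, 45.7 and 43.7 FPKM in treated B11, against 4.59, 4.20 and 7.08 FPKM in untreated B11. ASF1B, which hands new histones to the assembly factors, changed by 2.88 (SE 0.12). Untreated THP1 averaged 76.3 FPKM of HJURP and 91.0 FPKM of ASF1B, above the means of 45.4 and 60.7 FPKM in treated B11. Of 29 condensin and cohesin genes, 17 were higher and 1 lower (median 0.93), with NCAPH, a condensin subunit, at 59.4, 50.9 and 50.2 FPKM in treated B11, against 7.26, 5.89 and 5.32 FPKM in untreated B11. Of 61 Fanconi, recombination and mismatch repair genes, 42 were higher and 3 lower (median 0.97). UBE2T, the ubiquitin-conjugating enzyme of the Fanconi pathway, changed by 2.61 (SE 0.11). Genes of DNA methylation, Polycomb and heterochromatin were more mixed, with 23 of 46 higher and 9 lower (median 0.33). There UHRF1, which brings DNMT1 to hemimethylated DNA, changed by 2.16 (SE 0.10) and PHF19, a Polycomb subunit, by 2.16 (SE 0.08). Among 30 p53 target genes, 13 were higher and 5 lower, and the risers included both PCNA, the replication clamp (1.62, SE 0.09), and CDKN1A, the CDK inhibitor p21, at 31.5, 32.6 and 24.4 FPKM in treated B11, against 9.58, 9.44 and 12.3 FPKM in untreated B11.

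Nuclear transport and the core spliceosome rose as well. Of 30 karyopherins and Ran genes, 22 were higher and 0 lower (median 0.57), among them KPNA2, an importin alpha (1.65, SE 0.10), RANBP1, a cofactor of the Ran cycle (1.53, SE 0.08), and RAN itself, at 838, 916 and 887 FPKM in treated B11, against 327, 385 and 349 FPKM in untreated B11. Of 31 nucleoporins, 19 were higher and 1 lower. Among those higher was NUP155, an inner ring subunit (1.52, SE 0.12), and the 1 that fell was NUP214 of the cytoplasmic face, at 58.4, 70.3 and 68.9 FPKM in treated B11, against 119.9, 166 and 151 FPKM in untreated B11. Sm and LSM proteins form the ring that binds spliceosomal RNAs. Of 50 genes in the spliceosome list named after them, 34 were higher and 3 lower (median 0.54), with LSM4 at 1.24 (SE 0.09) and SNRPB at 1.08 (SE 0.06). SR proteins and hnRNPs, which regulate splice sites, were split, with 21 of 49 higher and 20 lower (median 0.17). HNRNPA2B1 changed by 0.83 (SE 0.06). SRSF5 was at 349, 329.9 and 289 FPKM in treated B11, against 518, 577 and 598 FPKM in untreated B11, and SRSF6 was at 58.8, 59.4 and 56.2 FPKM in treated B11, against 129, 109 and 118 FPKM in untreated B11.

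Protein synthesis, folding and sorting genes moved with them. Of 60 translation initiation and elongation factors, 31 were higher and 5 lower (median 0.30), and EEF1A2, an elongation factor best known from muscle and brain, changed by 1.77 (SE 0.09). Of 27 genes of the TRiC chaperonin, prefoldin and HSP90 co-chaperones, 21 were higher and 1 lower (median 0.62), with the TRiC subunit CCT5 at 1.16 (SE 0.07) and STIP1, which links HSP70 to HSP90, at 1.21 (SE 0.09). Mitochondrial import and folding had 34 of 45 higher and 1 lower (median 0.58). HSPD1, the matrix chaperonin, was at 566, 638 and 657 FPKM in treated B11, against 209, 202 and 201 FPKM in untreated B11. Its partner HSPE1, which shares a bidirectional start with it, changed by 1.90 (SE 0.12), and the matrix protease LONP1 by 1.81 (SE 0.11). In the secretory pathway, 36 of 59 genes of the ER translocon and N-glycosylation were higher and 4 lower (median 0.40), and 28 of 47 COPI and COPII coat genes were higher and 5 lower (median 0.40), among them KDELR2, the receptor that returns ER proteins (1.1, SE 0.07).

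**Figure D4:**
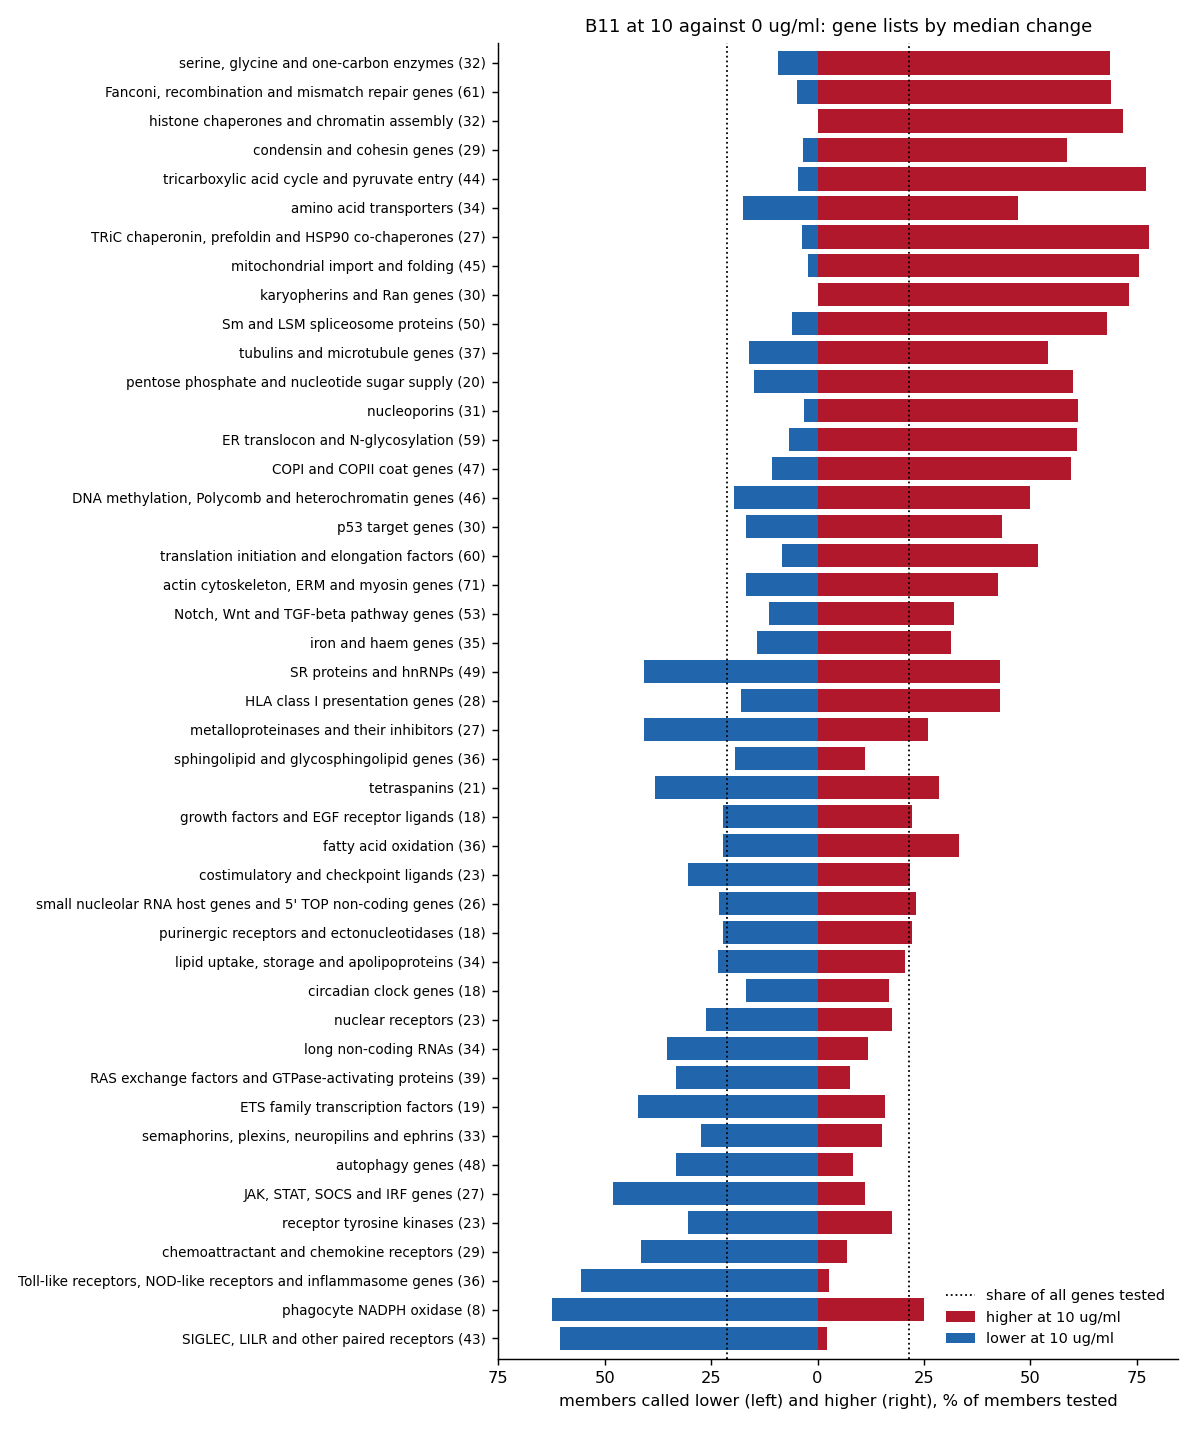
Bars give the share of tested members of 45 gene lists called higher (right) and lower (left) in treated B11, ordered by median change, with members tested in brackets and dotted lines at the shares of all genes, 21.6% higher and 21.3% lower. Lists of one-carbon metabolism, repair, chromatin and chaperones lie at the top, and paired receptors, with 1 of 43 higher and 26 lower, at the bottom.

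Of the metabolic lists, serine and one-carbon metabolism, which supplies nucleotide synthesis, had the largest median change, while the tricarboxylic acid cycle list had the larger share of genes higher (77.3% against 68.8%). Of 32 enzymes, 22 were higher and 3 lower, with a median of 1.17. PHGDH, the first enzyme of serine synthesis, was at 395, 419 and 426 FPKM in treated B11, against 11, 121 and 11.8 FPKM in untreated B11. PSAT1, the second, was at 171, 180.2 and 195 FPKM in treated B11, against 6.48, 43.9 and 6.90 FPKM in untreated B11. In THP1, PHGDH averaged 223 FPKM at 10 ug/ml and 130 FPKM at 0 ug/ml, and PSAT1 131 and 60.3 FPKM. Neither was called there by limma (adjusted p = 0.715 and 0.381), in a fit with 1 spread per gene for all groups. Untreated B11 library B stood apart in these genes. In it 4 of the 32 enzymes were at least 2-fold above both other untreated libraries, 12.5%, against 3.17% of all genes tested, and the same held for 3 of 34 amino acid transporters. Without this library 21 enzymes were higher and 3 lower, and 15 transporters were higher and 7 lower. MTHFD2, a mitochondrial folate enzyme, was at 249.6, 304 and 289 FPKM in treated B11, against 52.9, 85.6 and 53.8 FPKM in untreated B11, and TYMS, the thymidylate synthase, changed by 2.89 (SE 0.12). TYMS, which averaged 242 FPKM in treated B11 and 314 FPKM in untreated THP1, overlaps ENOSF1 on the other strand.

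Of 34 amino acid transporters, 16 were higher and 6 lower (median 0.62), and SLC7A5, the carrier of large neutral amino acids, was at 86.2, 89.1 and 96.4 FPKM in treated B11, against 3.45, 15.2 and 2.51 FPKM in untreated B11. In THP1 SLC7A5 averaged 77.6 FPKM at 10 ug/ml and 43.4 FPKM at 0 ug/ml, and was not called by limma (adjusted p = 0.438). The tricarboxylic acid cycle and pyruvate entry had 34 of 44 genes higher and 2 lower (median 0.77), with IDH2 at 1.36 (SE 0.07) and MDH2 at 0.92 (SE 0.06), 2 dehydrogenases of the mitochondrial matrix. MT-CO1, a subunit of cytochrome oxidase that the mitochondrial genome encodes, was lower, at 2983, 2769 and 2075 FPKM in treated B11, against 7289, 5577 and 6268 FPKM in untreated B11. Fatty acid oxidation was mixed, with 12 of 36 genes higher and 8 lower (median 0.03). Autophagy genes tended the other way, with 4 of 48 higher and 16 lower (median -0.28). CALCOCO1, a receptor for selective autophagy, was at 18.8, 17.5 and 16.1 FPKM in treated B11, against 78.6, 76.3 and 75.2 FPKM in untreated B11. ATG16L2 changed by -2.23 (SE 0.12), and the ATG8 family members MAP1LC3A and GABARAP by -1.28 (SE 0.11) and -0.82 (SE 0.06).

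Several families of innate immune receptors had more genes lower than higher. Purinergic receptors (4 higher and 4 lower of 18) and costimulatory and checkpoint ligands (5 higher and 7 lower of 23, median 0.02) did not share this tilt. Of 43 SIGLEC, LILR and other paired receptors, 26 were lower and 1 higher, with a median of -0.68. TYROBP, the adaptor DAP12 through which many activating receptors signal, was at 345, 357 and 351 FPKM in treated B11, against 1578, 1411 and 1601 FPKM in untreated B11 (change -2.12, SE 0.07, adjusted p = 8.69e-12). SIRPB2 was at 1.68, 1.78 and 1.1 FPKM in treated B11, against 14.6, 14.7 and 15.6 FPKM in untreated B11, and the inhibitory receptor LAIR1 changed by -0.84 (SE 0.05). The 1 member that was higher was TREML2, at 0.741, 1.06 and 0.524 FPKM in treated B11, against 0.159, 0.238 and 0.0519 FPKM in untreated B11. Of 36 Toll-like receptors, NOD-like receptors and inflammasome genes, 20 were lower and 1 higher (median -0.48). TLR4, which senses lipopolysaccharide, was at 0.310, 0.669 and 0.552 FPKM in treated B11, against 6.45, 5.70 and 8.03 FPKM in untreated B11, TLR2 changed by -1.30 (SE 0.10), and the 1 higher gene was the adaptor CARD9 at 0.23 (SE 0.08, adjusted p = 0.031), a call that was lost in 6 of 16 alternative settings. Chemoattractant and chemokine receptors had 12 of 29 lower and 2 higher (median -0.41). CCR2, the receptor that draws monocytes into tissue, was at 11.4, 19.8 and 13.5 FPKM in treated B11, against 95.4, 80.2 and 96.2 FPKM in untreated B11, and CX3CR1 changed by -1.85 (SE 0.14). Of 8 phagocyte NADPH oxidase genes, 5 were lower and 2 higher, with the catalytic subunit CYBB at 0.856, 0.514 and 1.14 FPKM in treated B11, against 9.2, 8.23 and 8.4 FPKM in untreated B11.

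Of 39 RAS exchange factors, GTPase-activating proteins and related effectors, 3 were higher and 13 lower (median -0.22). RGL2, an exchange factor of RAL that binds active RAS, was at 97.8, 86.0 and 74.1 FPKM in treated B11, against 294, 274 and 295 FPKM in untreated B11, and RASSF2, a RAS-binding protein, changed by -1.32 (SE 0.09). SIPA1, which inactivates RAP, changed by -0.62 (SE 0.08).

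Of 23 receptor tyrosine kinases, 4 were higher and 7 lower, shares of 17.4% and 30.4%, and of 18 growth factors and EGF receptor ligands 4 were higher and 4 lower. FLT3, the receptor of early blood progenitors, was at 17.8, 15.7 and 14.4 FPKM in treated B11, against 45.8, 42.0 and 40.3 FPKM in untreated B11, and RET changed by -1.07 (SE 0.07) and LTK by -1.54 (SE 0.18). EPHA2, an ephrin receptor and known target of ERK signalling, was at 3.95, 4.25 and 4.91 FPKM in treated B11, against 0.302, 0.139 and 0.299 FPKM in untreated B11. In the JAK, STAT, SOCS and IRF list 3 of 27 were higher and 13 lower (median -0.30), with the kinase TYK2 at -1.61 (SE 0.13) and STAT2, a subunit of the interferon-activated complex, at -1.63 (SE 0.08), while IRF8, a factor of monocyte and dendritic cell lineages, was at 994, 981 and 1043 FPKM in treated B11, against 558, 528 and 574 FPKM in untreated B11. Of 19 ETS factors, 3 were higher (15.8%) and 8 lower (42.1%). The 3 higher ones were the PEA3 factors ETV4, ETV5 and ETV1, which ERK signalling is known to induce. ETV4 was at 10.3, 7.82 and 8.68 FPKM in treated B11, against 0, 0 and 0.271 FPKM in untreated B11, and ETV1 at 1.71, 2.54 and 2.20 FPKM in treated B11, against 0.608, 0.266 and 0.204 FPKM in untreated B11. ETV5 was uneven, at 16.3, 18.8 and 16 FPKM in treated B11, against 10.9, 1.63 and 0.0823 FPKM in untreated B11, and its call was lost when only the libraries of these groups entered the fit (adjusted p = 0.0723). ELF2 changed by -1.03 (SE 0.09).

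The cytoskeleton lists leaned upward. Of 71 actin cytoskeleton, ERM and myosin genes, 30 were higher and 12 lower (median 0.19), with TAGLN2, an actin-binding protein, at 699.9, 718 and 735 FPKM in treated B11, against 206, 234 and 251 FPKM in untreated B11, and TPM2, a tropomyosin, at -1.92 (SE 0.13). Of 37 tubulin and microtubule genes, 20 were higher and 6 lower (median 0.48), and TUBB was at 646, 637 and 689 FPKM in treated B11, against 111, 92.6 and 104 FPKM in untreated B11. Tubulin genes are similar in sequence, and how reads were divided among them is uncertain.

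Some of the changed genes lay side by side. A run was at least 4 tested genes next to each other on a chromosome, all called in 1 direction at 2-fold or more, and all coordinates are GRCh38 with GENCODE release 29. The aldo-keto reductase cluster on chromosome 10 (4963253 to 5271236) held 5 such genes. AKR1C2 on the minus strand was at 621, 644 and 626 FPKM in treated B11, against 0.409, 0 and 0.692 FPKM in untreated B11, and AKR1C3 on the plus strand was at 60.4, 56.7 and 57.0 FPKM in treated B11, against 1.54, 0 and 0 FPKM in untreated B11. AKR1C1 was at 32.8, 28.1 and 78.7 FPKM in treated B11 and was listed at 0 in all 3 untreated libraries. These enzymes reduce steroids and reactive carbonyls, and their coding sequences are so alike that the division of reads among them is uncertain. In THP1 AKR1C2 averaged 2.27 FPKM at 10 ug/ml and 0.919 FPKM at 0 ug/ml. Another upward run was on chromosome 22 (17116299 to 17165445), from TMEM121B to HDHD5-AS1.

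Of the 5 downward runs, that on chromosome 10 (71319258 to 71851375) held PSAP, the precursor of the lysosomal saposins, at 349, 367 and 345 FPKM in treated B11, against 1222, 1024 and 1069 FPKM in untreated B11. Its neighbour VSIR, the checkpoint protein VISTA, which lies within CDH23 on the other strand, was at 102, 91.5 and 95.8 FPKM in treated B11, against 229, 253 and 253 FPKM in untreated B11. On chromosome 16 (67159931 to 67175735) HSF4, a heat shock factor, changed by -1.84 (SE 0.18) and NOL3, an inhibitor of apoptosis, by -1.87 (SE 0.22). On chromosome 2 (42797225 to 43233394) ZFP36L2, which promotes decay of messages with AU-rich elements, was at 66.8, 58.5 and 58.0 FPKM in treated B11, against 312, 281 and 348 FPKM in untreated B11. On chromosome 9 (76419850 to 77648307) PRUNE2 changed by -2.27 (SE 0.22). Several members of these runs overlap each other, so their values are not independent. Across chromosomes, the share of genes called lower was highest on chromosome 17 (27.1%) and lowest on chromosome 18 (12.4%) among the nuclear ones. Of 15 mitochondrial genes tested, 0 were higher and 13 lower (86.7%, median -0.72).

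Promoter sequence was compared as a description only. The RefSeq table gives the 250 bases before and 50 bases after each gene's start, and this window of 300 bases, at the first start listed, was searched on both strands for 9978 protein-coding genes tested. The motif of E2F, the cell cycle factor released by cyclin D kinases (TTTGGCGC or TTTCCCGC), stood in 7.06% of 935 promoters of genes at least 2-fold higher, in 1.47% of 614 promoters of genes at least 2-fold lower and in 3.76% of all. The cell cycle homology region, CHR (TTTGAA), stood in 16.5%, 10.7% and 9.6%, and in 28.6% of the 192 promoters of genes at least 4-fold higher and 13.9% of the 79 of genes at least 4-fold lower. The CCAAT box was in 45.1%, 31.8% and 36.6%, the CRE (TGACGTCA) in 4.81%, 1.79% and 3.18%, and the composite site of CEBP and ATF factors (TGATGCAA) in 1.18%, 0.489% and 0.451%. Shares for AP-1 (TGAGTCA, which is TGACTCA on the other strand) were 3.21%, 4.4% and 2.94%, for PU.1 (GAGGAAGT) 2.46%, 3.26% and 2.61%, for the CArG box of serum response factor 1.5%, 0.814% and 1.09%, and for the E-box (CACGTG) 11.7%, 7.98% and 10.2%. In genes at least 4-fold higher and lower, AP-1 stood in 3.65% and 7.59%, PU.1 in 2.6% and 6.33%, and E2F in 9.38% and 0%. The AP-1 and PU.1 shares of the lower class are 6 and 5 of 79 promoters. Promoter GC content had a median of 65.3% in genes at least 2-fold higher, 63.0% in genes at least 2-fold lower and 65.3% in all. Its median was 64.5% in genes at least 4-fold higher and 58.0% in genes at least 4-fold lower. Promoters of different GC content hold such short motifs at different rates.

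The promoters of 5 genes, each of 250 bases up to the base before the start, show where such matches lie. Matches of the named motif are in capitals, all sequences run 5' to 3' on the gene's strand, and builds are GRCh38.p14. EGR1 (plus strand, chr5:138465229-138465478) holds 2 CArG boxes, which begin 105 and 83 bases before the start. CDT1 (plus strand, chr16:88803539-88803788) holds an E2F match 35 bases before the start, read on the other strand, and HJURP (minus strand, chr2:233854536-233854785) a CHR 111 bases before it. TYROBP (minus strand, chr19:35908296-35908545) holds a PU.1 match on the other strand 12 bases before the start. MTHFD1L (plus strand, chr6:150866236-150866485, the first of 4 starts listed) holds the CEBP and ATF composite 129 bases before the start. MTHFD1L, a mitochondrial folate enzyme at 55.0, 52.5 and 52.9 FPKM in treated B11, against 10.6, 19.1 and 8.59 FPKM in untreated B11, was chosen for its match after its values were seen.
EGR1: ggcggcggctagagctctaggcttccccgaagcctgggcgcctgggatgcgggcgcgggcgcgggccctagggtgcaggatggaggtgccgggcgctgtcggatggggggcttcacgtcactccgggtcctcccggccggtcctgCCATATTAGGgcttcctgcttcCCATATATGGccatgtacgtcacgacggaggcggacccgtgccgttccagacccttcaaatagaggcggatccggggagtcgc
CDT1: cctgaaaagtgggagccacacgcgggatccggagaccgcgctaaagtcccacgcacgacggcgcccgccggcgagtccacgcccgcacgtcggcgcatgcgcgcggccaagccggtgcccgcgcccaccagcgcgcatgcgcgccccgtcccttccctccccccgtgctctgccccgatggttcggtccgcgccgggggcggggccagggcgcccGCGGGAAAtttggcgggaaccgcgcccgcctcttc
HJURP: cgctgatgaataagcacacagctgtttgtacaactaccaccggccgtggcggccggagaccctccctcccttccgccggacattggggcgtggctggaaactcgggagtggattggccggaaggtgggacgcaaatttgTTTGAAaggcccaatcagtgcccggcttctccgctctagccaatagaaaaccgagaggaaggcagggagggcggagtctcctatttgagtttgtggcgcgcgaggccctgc
TYROBP: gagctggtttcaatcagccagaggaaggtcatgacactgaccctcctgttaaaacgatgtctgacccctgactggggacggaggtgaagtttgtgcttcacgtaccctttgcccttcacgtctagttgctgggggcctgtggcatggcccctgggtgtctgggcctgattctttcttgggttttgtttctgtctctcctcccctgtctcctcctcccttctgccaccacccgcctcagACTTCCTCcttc
MTHFD1L: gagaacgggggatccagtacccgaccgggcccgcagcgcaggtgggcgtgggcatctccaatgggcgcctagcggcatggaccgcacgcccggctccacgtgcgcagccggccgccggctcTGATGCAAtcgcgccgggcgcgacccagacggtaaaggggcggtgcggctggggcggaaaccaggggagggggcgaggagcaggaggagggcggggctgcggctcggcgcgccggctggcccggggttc
A match says that these letters stand in the window, and binding was not measured.

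Few genes were called in the same drug comparison in THP1, and PHGDH, PSAT1 and SLC7A5, with higher means there, were not among them. There 17 genes were higher (0.0968%) and 162 lower (0.923%) at 10 against 0 ug/ml. The difference between the responses of the lines, tested as an interaction in the same fit, was positive for 2812 genes (16%) and negative for 2418 (13.8%). Of the 2780 genes that changed at least 2-fold in B11, 2267 (81.5%) had a response that differed from that of THP1. Among the list genes, 22 of the 32 histone chaperones and chromatin assembly genes had a larger response in B11 and none a smaller one, and 18 of the 43 paired receptors had a lower response in B11 and 2 a higher one.

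Of the 179 genes called in THP1, 124 (69.3%) were also called in B11, where 42.8% of all genes were called, and these were 1.65% of the B11 calls. Of the 124, 9 were higher in both and 50 lower in both, 62 were higher in B11 and lower in THP1, and 3 the reverse. ASNS, the asparagine synthetase, was at 76.1, 83.8 and 82.7 FPKM in treated B11, against 13.6, 21.8 and 13.2 FPKM in untreated B11, and averaged 28.1 FPKM in treated THP1 and 14.4 FPKM in untreated THP1. CBS, an enzyme of cysteine synthesis, changed by 2.41 (SE 0.32) in B11 and by 1.57 (SE 0.32) in THP1, and the difference of 0.84 (SE 0.45, adjusted p = 0.183) did not pass. NKD2, an antagonist of Wnt signalling, changed by 2.13 (SE 0.10) in B11 and by 0.84 (SE 0.10) in THP1. MLST8, a subunit of the mTOR complexes, changed by 1.35 (SE 0.08) and 0.46 (SE 0.08), RNF187 by 1.05 (SE 0.06) and 0.38 (SE 0.06), and DMAC1 by 0.65 (SE 0.09) and 0.41 (SE 0.09), each in B11 and then in THP1. The difference between lines passed for NKD2, MLST8 and RNF187 and not for DMAC1 (adjusted p = 0.166).

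Among genes lower in both lines, LSP1, an actin-binding protein of leukocytes, was at 1.60, 2.51 and 0.398 FPKM in treated B11, against 23.1, 31.5 and 29.2 FPKM in untreated B11, and averaged 40.3 FPKM in treated THP1 and 112 FPKM in untreated THP1. The other 5 named by the same rule were GLIPR1, CFP, NFE2, CSF1R and CXCR4, whose THP1 changes were -0.76 (SE 0.14), -0.95 (SE 0.14), -0.54 (SE 0.09), -0.50 (SE 0.10) and -0.57 (SE 0.11). In all 6 the fall in B11 was the larger, and the difference between lines passed. Doxycycline itself was given to the treated plates of both lines, so for such genes the effect of the drug and of the transgene cannot be told apart within B11.

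**Figure D5:**
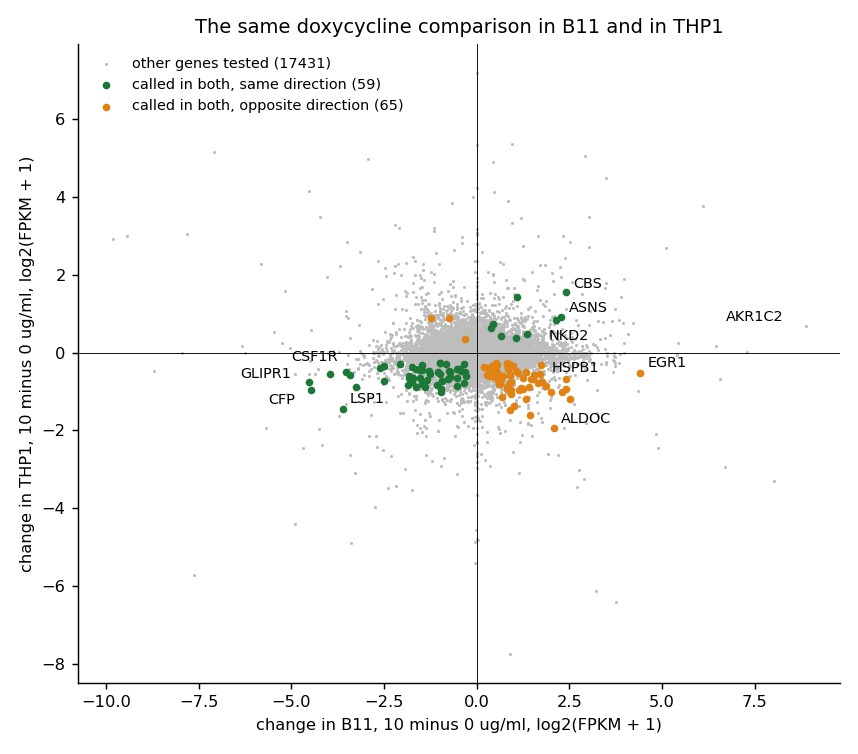
Each point is a gene tested, with its change at 10 minus 0 ug/ml in B11 on the horizontal axis and in THP1 on the vertical axis, both as log2(FPKM + 1). Green points are the 59 genes called in both lines in the same direction and orange points the 65 called in opposite directions, most of them higher in B11 and lower in THP1.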

How the data were processed

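RNA was measured by sequencing in 18 libraries, 3 in each of 6 groups (B11 and THP1 at 0, 1 and 10 ug/ml doxycycline). The deposited table holds normalized values whose header names no unit, and they were read as FPKM, since HISAT2, Cuffnorm and GRCh38 are named in the submitters' processing notes. The sources used here give no tool versions, order of steps or strandedness, and read depth was not estimated, so no interval from counts is given. GENCODE release 29 gave names and kinds of gene, and 0 columns had no sample.

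Values were tested with limma 3.58.1 in R 4.3.3 on log2(FPKM + 1), with an intensity trend, in 1 fit of all 18 libraries (12 residual degrees of freedom) and with Benjamini-Hochberg adjustment over all genes that reached 1 FPKM in 3 or more libraries. A gene was called at an adjusted p under 0.05. The script was tested on simulated data. Members, the 52 gene lists and the naming rules were chosen with earlier results of these data known. Named were NRAS and, among called genes with a mean of at least 5 FPKM in the higher group and groups that did not overlap, the 25 protein-coding genes with the largest change and the 12 with the largest difference in FPKM in each direction, 8 of other kinds, up to 4 called members of each list, members of runs of neighbours, and the leading genes of the THP1 comparison. Not every gene or list so named is reported here. MTHFD1L, ETV5, ETV1, TREML2 and CARD9 were chosen after their values were seen. Alternatives were another pseudocount, other filters, median of ratios scaling, TPM, other moderation of variance, a replicate block, only the libraries compared, and each library left out. Promoters are from RefSeq. Figures were drawn with matplotlib 3.10.9.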

Additional observations from a re-analysis of the deposited data

Results flagged for a closer look

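The response to 10 against 0 ug/ml differed between B11 and THP1, by the interaction term of the limma fit, in the genes that follow, each given as the change in B11 minus the change in THP1 on the log2(FPKM + 1) scale. It was positive for AKR1C2 (8.20), AKR1C1 (5.49), RAB3IL1 (5.35), AKR1C3 (5.20), EGR1 (4.94), MPP6 (4.22), INAVA (4.08) and ALDOC (4.02). It was negative for S100A8 (-4.37), PTGDS (-3.98), CD36 (-3.84), S100A9 (-3.81), GLIPR1 (-3.78), OLFML3 (-3.73), CFP (-3.51) and NFE2 (-3.41). Genes called higher in B11 and lower in THP1 included HSPB1 (2.05), CDKN1A (2.29), LGALS1 (1.33), GAPDH (1.16) and ACTB (1.09).

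ALDOC, a glycolytic aldolase, was at 136, 149 and 29.2 FPKM in treated B11, against 18.3, 19.2 and 20.1 FPKM in untreated B11, and averaged 8.48 FPKM in treated THP1 and 35.3 FPKM in untreated THP1. Treated library C lay much nearer to the untreated ones than libraries A and B did. MPP6, a scaffold protein of membranes, was uneven as well, at 3.85, 18.2 and 30.9 FPKM in treated B11, against 0.535, 0.328 and 0.695 FPKM in untreated B11. In THP1 it was at 3.88, 4.57 and 16.6 FPKM at 10 ug/ml, against 18.7, 36.6 and 3.89 FPKM at 0 ug/ml. RAB3IL1 was at 11.8, 14 and 8.89 FPKM in treated THP1, against 66.4, 17.8 and 10.8 FPKM in untreated THP1, where library A stood apart.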

How the results depend on the processing

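Of the 145 called genes named with their values, 4 lost their call in at least 1 of 16 settings (CEP97, ALDOC, ETV5 and CARD9), and 0 values were reversed. ALDOC lost it with only the libraries compared (adjusted p = 0.0502). Genes at least 2-fold lower numbered 783 where only genes averaging 5 FPKM or more were tested and 843 where only protein-coding genes with 300 or more exonic bases were, an alternative chosen after seeing the data. Both test fewer genes. With only the libraries compared, THP1 had 5 genes higher and 41 lower, and the cause was not tested. Leaving out 1 library at a time gave 3385 to 3556 genes higher, 3145 to 3405 lower, 1345 to 1407 at least 2-fold higher and 1265 to 1421 at least 2-fold lower in B11, an NRAS change of 0.36 to 0.43, 2536 to 2768 genes with a positive and 2067 to 2311 with a negative difference between lines, and 7 to 19 higher and 62 to 101 lower in THP1. The THP1 count of lower genes fell by over 1.5 times without any 1 of its 6 libraries, to 62 without library B or C at 0 ug/ml. That of higher genes was 7 without library A at 10 ug/ml or library B or C at 0 ug/ml, and 8 without library A at 0 ug/ml. Libraries of the same letter in treated and untreated B11 did not deviate together (correlations of 0.0775, -0.0603 and 0.0156 for A, B and C). This does not show how the plates were handled, and the main fit did not use the letters as pairs. With the letter as a replicate block, 3756 genes were higher and 3666 lower. Of 672 counts of list members and kinds of gene under the alternatives, 658 stayed within 1.5 times and 14 moved. The iron and haem list had 6 genes higher with only the libraries compared, against 11. With only genes averaging 5 FPKM or more tested, 14 paired receptors were lower, against 26. There 8 Notch, Wnt and TGF-beta genes were higher, against 17. Metalloproteinases had 7 lower, against 11, and long non-coding RNAs 6, against 12. A count test was not run, since the table holds no counts. Depth was not estimated, so no detection limit is given for low genes.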

Other observations

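In the Notch, Wnt and TGF-beta list 17 of 53 genes were higher and 6 lower, and DLL1, a Notch ligand, was at 40.1, 38.6 and 38 FPKM in treated B11, against 12.7, 12.4 and 14.8 FPKM in untreated B11. Of 27 metalloproteinases and their inhibitors, 7 were higher and 11 lower, with TIMP1 at 639, 593 and 570.4 FPKM in treated B11, against 1118, 1137 and 1081 FPKM in untreated B11. HLA class I presentation had 12 of 28 genes higher and 5 lower, tetraspanins 6 of 21 higher and 8 lower, nuclear receptors 4 of 23 higher and 6 lower, clock genes 3 of 18 in each direction, and growth factors 4 of 18 in each direction. Sphingolipid genes had 4 of 36 higher and 7 lower, lipid uptake genes 7 of 34 higher and 8 lower, semaphorins and ephrins 5 of 33 higher and 9 lower, and iron and haem genes 11 of 35 higher and 5 lower. Over all genes tested, 21.6% were higher and 21.3% lower. Growth factors (22.2% and 22.2%), clock genes (16.7% and 16.7%) and lipid uptake genes (20.6% and 23.5%) lay near these shares.

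Markers of other cell types were mostly absent. Of 28 stem and progenitor markers in the table, 9 were listed at 0 in all 6 B11 libraries and 18 were below 1 FPKM in all 6, and their sum was 308.3 to 348.5 FPKM in treated B11 and 349.2 to 350.0 FPKM in untreated B11. KIT was at 0.210, 0.0450 and 0.0455 FPKM in treated B11, against 1.99, 1.35 and 1.77 FPKM in untreated B11, and GATA2 at 16.6, 21.8 and 15 FPKM in treated B11, against 7.23, 5.63 and 4.20 FPKM in untreated B11. Of 33 erythroid and megakaryocyte markers 12 were at 0 and 24 below 1 FPKM, with sums of 111.5 to 123.6 FPKM in treated B11 and 55.67 to 71.85 FPKM in untreated B11. T, NK and B cell markers summed to 230.8 to 248.1 FPKM in treated B11 and 178.5 to 199.7 FPKM in untreated B11, and epithelial, fibroblast and endothelial markers to 344.2 to 394.2 FPKM in treated B11 and 328.0 to 347.7 FPKM in untreated B11. Their part in the results was not tested.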
